A study of Homo sapiens with 12 samples.

Results

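The genes described here are 8 markers that are used to identify or maintain breast cancer stem cells: CD44, CD24, PROM1 and ITGA6, which encode surface antigens, ALDH1A3, which encodes an enzyme, and KLF4, SOX9 and BMI1, which encode regulators of transcription. They were picked by gene symbol, with earlier results of these data known, and each symbol matched 1 row, giving 8 of the 59324 genes in the expression table. All 8 averaged above 1 TPM in every group, so all 8 were among the 13937 genes that could be tested. TPM is a length-corrected share of all transcripts of a library, so levels of different genes can be set side by side.

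Breast cancer stem cells are a subpopulation defined in practice by sorting: cells with high surface CD44 and low or absent CD24, or cells with high aldehyde dehydrogenase activity, start tumours in mice more readily than the remaining cells. CD133 (the PROM1 product) and integrin alpha6 (the ITGA6 product) have served as further sorting antigens, and KLF4, SOX9 and BMI1 belong to the regulators tied to self-renewal in mammary and other epithelia. In cell lines of basal-like origin CD44 is commonly found on most cells.

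RNA was sequenced from MDA-MB-468, an established human triple-negative breast cancer cell line with a basal-like phenotype. The SAHA group is labelled with SAHA alone, at 10 µM for 12 h. The sonidegib group is labelled with sonidegib alone, at 10 µM as a pretreatment of 72 h. The combination group is labelled with both drugs but without dose or time, and the same doses and times are assumed for it. The control group is labelled only as control. SAHA, known as the drug vorinostat, blocks histone deacetylases, the enzymes that take acetyl groups off histones, and sonidegib blocks Smoothened, a membrane protein of Hedgehog signalling. Each of the 4 groups had 3 libraries. The labels do not say whether these came from separate cultures, how long control cells were kept, or whether sonidegib was present during the SAHA exposure, so p-values measure only the spread between these libraries. All values come from bulk RNA of 1 line, in which fewer cells of a type and less RNA per cell cannot be told apart.

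Epithelial genes were detected in every library, but their levels moved with the groups. The 6 epithelial markers (EPCAM, CDH1, KRT8, KRT18, KRT19 and EGFR) summed to 4751 to 4897 TPM in the combination, 9492 to 9922 TPM with SAHA, 4806 to 5169 TPM with sonidegib and 8196 to 9069 TPM in control. Most of this sum came from 3 keratins, KRT19 (2026 to 5128 TPM over the 12 libraries), KRT8 (836 to 2388 TPM) and KRT18 (652 to 1674 TPM). EGFR ran from 516 to 678 TPM, EPCAM from 178 to 346 TPM and CDH1 from 18.4 to 49.3 TPM. The 3 basal keratins (KRT5, KRT14 and KRT17) summed to 655.8 to 668 TPM in the combination, 1851 to 2072 TPM with SAHA, 673.1 to 712.5 TPM with sonidegib and 840 to 956.8 TPM in control, and KRT17 alone ran from 150.2 to 1473 TPM over the 12 libraries. The epithelial sum was thus lower in all 6 libraries with sonidegib, as CD24 and SOX9 were, and the basal keratin sum was highest with SAHA, where CD44 was lowest; the part of these shifts in the marker results was not tested. PGR was at 0 in all 12 libraries and ESR1 reached at most 1.76 TPM, while ERBB2 lay between 3.05 and 26.3 TPM. Of the leukocyte markers reported here PTPRC did not exceed 0.01 TPM, CD3E 0.09 TPM and ITGAM 0.2 TPM, while CD14 stood at 207 to 336 TPM. The 4 endothelial markers summed to 4.04 to 4.57 TPM in the combination, 4.89 to 5.83 TPM with SAHA, 2.36 to 3.25 TPM with sonidegib and 4.01 to 5.01 TPM in control; KDR (1.75 to 4.99 TPM) and PECAM1 (0.09 to 1.03 TPM) were above 0 in all 12 libraries, VWF and CDH5 at most 0.4 TPM. The 5 fibroblast markers summed to 8.79 to 10.15 TPM in the combination, 10.32 to 12.97 TPM with SAHA, 4.46 to 7.02 TPM with sonidegib and 3.21 to 4.47 TPM in control, mostly from COL1A1, while COL1A2, COL3A1 and DCN stayed at or below 0.35 TPM and LUM was at 0 in all 12 libraries. Fibroblasts also carry CD44, and the part of these transcripts in the CD44 values was not tested. Each library had between 13204 and 13874 genes at 1 TPM or more, and depth is unknown because TPM keeps no read counts. The 5S ribosomal RNA genes had sums of 1488 to 12640 TPM in the 6 libraries that received sonidegib and of 0 in the 6 without it, and mitochondrial ribosomal RNA took 2.06 to 2.86% and 0.565 to 1.35% of the TPM in these libraries. This difference and sonidegib cannot be told apart in this design. With mitochondrial and ribosomal RNA genes removed, the sonidegib differences of the markers given below moved by less than their standard errors, apart from CD44 in the combination, which is described with its values.

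CD44 was the most abundant of the 8 markers in 3 of the 4 groups and ranked between 116 and 311 of the 13937 tested genes in every library. With SAHA alone CD24 was the more abundant, as set out below. SOX9, ALDH1A3, ITGA6 and PROM1 lay in a middle range, with group means from 21.1 TPM (PROM1 in the combination) to 104 TPM (ALDH1A3 in control). KLF4 and BMI1 were scarce: group means were 1.16 to 7.27 TPM for KLF4 and 2.54 to 3.74 TPM for BMI1. BMI1 had the largest SD relative to its mean in all 4 groups.

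**Figure D1:**
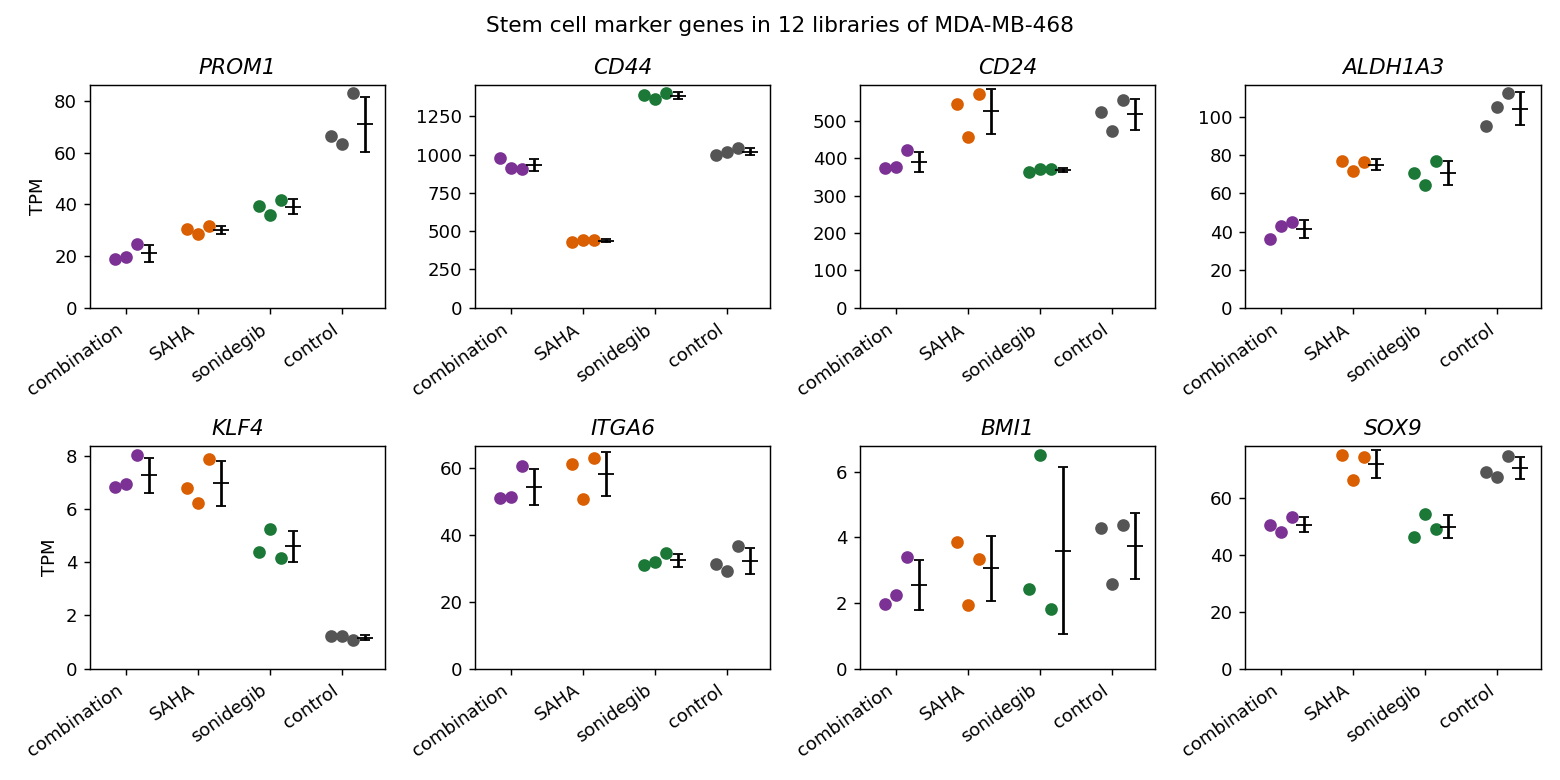
Level of each marker in TPM on a linear axis that starts at 0, 1 panel per gene. Points are the 3 libraries of a group, and the bar beside them is the mean with its SD. CD44 lies between 426 and 445 TPM with SAHA and higher in all other libraries, and the KLF4 libraries of the 3 treated groups all lie above the control libraries.

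The changes against control split the markers into several patterns. With SAHA, 5 of the 8 passed the test at an adjusted p under 0.05 (2 higher and 3 lower), where 58.7% of all tested genes passed (31.8% higher and 26.9% lower). With sonidegib 6 passed (2 higher and 4 lower), against 55.3% of all tested genes (26.1% higher and 29.2% lower). With the combination 7 passed (2 higher and 5 lower), against 63.7% of all tested genes (29.7% higher and 34% lower). The count with SAHA lies near the share of all genes; the counts with sonidegib and the combination lie above it, by few genes in so short a list, and these differences were not tested. The median difference of the 8 from control was -0.11 for SAHA, -0.32 for sonidegib and -0.41 for the combination on the log2(TPM + 1) scale, where the medians over all tested genes were 0.05, -0.02 and -0.02. The libraries of the compared groups did not overlap for 5, 6 and 7 of the 8 markers in these comparisons, and for 63.7%, 62.3% and 66.9% of all tested genes. The 3 comparisons share the control libraries, so they are not independent of each other.

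**Figure D2:**
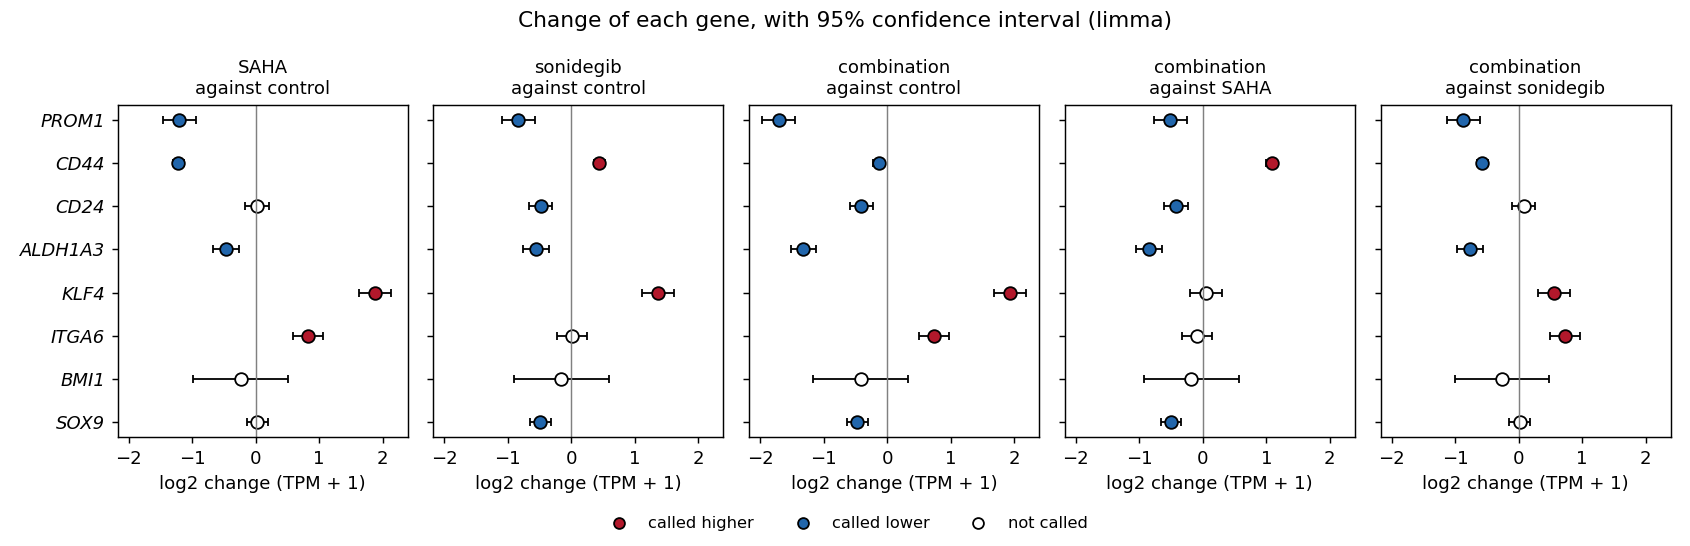
Difference between groups for each marker on the log2(TPM + 1) scale, with bars for the 95% confidence interval of the limma fit, by comparison. KLF4 and ITGA6 lie above 0 and PROM1 and ALDH1A3 below 0 wherever SAHA is compared with control, and the interval of BMI1 spans 0 in every comparison.

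CD44 encodes the receptor for the matrix polysaccharide hyaluronan, and its gene spans chr11:35138870-35232402 on the plus strand of GRCh38. It had 977, 910.1 and 905 TPM in the combination libraries, 426, 442 and 445 TPM with SAHA, 1387, 1360.3 and 1404 TPM with sonidegib, and 998, 1016 and 1045 TPM in control. The SAHA libraries were the lowest and the sonidegib libraries the highest, and no 2 groups overlapped. The means were 437.7 ± 9.92 TPM with SAHA and 1020 ± 23.3 TPM in control (SD, n = 3 each), a ratio of 0.429. CD44 fell with SAHA by 1.22 on the log2(TPM + 1) scale (SE 0.040, limma adjusted p = 1.34e-09) and rose with sonidegib by 0.44 (SE 0.040, limma adjusted p = 3.74e-06). The drugs thus moved CD44 in opposite directions. With both drugs CD44 averaged 931 ± 39.9 TPM, 2.13 times the SAHA mean, and the difference to SAHA alone was 1.09 (SE 0.040, limma adjusted p = 1.19e-08). Against sonidegib alone the combination was lower by a log2 difference of -0.57 (limma adjusted p = 1.78e-06). Against control the combination differed by -0.13 (SE 0.040, limma adjusted p = 0.0137), and this small fall is not secure. It missed the threshold without control replicate 3 (adjusted p = 0.0506), without combination replicate 2 (0.0551) or without combination replicate 3 (0.0505), and with mitochondrial and ribosomal RNA genes removed (a difference of -0.07, limma adjusted p = 0.157). The table gives 1 value per gene, so the standard and variant splice forms of CD44 were not told apart.

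CD24 encodes a small glycosylphosphatidylinositol-anchored sialoglycoprotein whose loss accompanies high CD44 in the classical stem cell phenotype, and it lies at chr6:106969831-106975627 on the minus strand. It had 374, 376 and 422 TPM in the combination libraries, 547, 459 and 573 TPM with SAHA, 364, 371 and 373 TPM with sonidegib, and 525, 472 and 556 TPM in control. All 6 libraries with sonidegib lay below all 6 libraries without it. CD24 fell with sonidegib by 0.48 on the log2(TPM + 1) scale (SE 0.085, limma adjusted p = 0.00053) and by 0.42 between the combination and SAHA alone (SE 0.085, limma adjusted p = 0.00147). With SAHA alone the difference to control was 0.02, with a 95% confidence interval of -0.17 to 0.21. In the combination the level was 0.40 lower than in control on that scale, a difference of -0.40 (limma adjusted p = 0.00141). Quantile normalization brought the sonidegib difference to -0.23 (adjusted p = 0.0566) and that of the combination against control to -0.15 (adjusted p = 0.184). Copies of CD24 elsewhere in the genome share sequence with it: 9.74% of the 31-base words of its annotated transcripts also occur in other genes. The nearest named copy in the table, CD24P4, holds 4.88% of them. CD24 took 98.5 to 98.8% of the summed TPM of the pair in every library.

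Since CD44-high, CD24-low cells are sorted by the contrast of the 2 antigens, the difference of their log2(TPM + 1) values was taken within each library. It averaged 1.25 ± 0.14 in the combination, -0.26 ± 0.18 with SAHA, 1.90 ± 0.03 with sonidegib and 0.98 ± 0.11 in control (SD, n = 3 each). The 3 SAHA libraries were the only ones below 0 of the 12, so CD24 had the higher TPM of the 2 genes there. As plain ratios of TPM, CD44 over CD24 was 2.61, 2.42 and 2.15 in the combination libraries, 0.780, 0.963 and 0.777 with SAHA, 3.81, 3.67 and 3.77 with sonidegib, and 1.90, 2.15 and 1.88 in control. The sonidegib libraries were highest and the SAHA libraries lowest. The combination and control libraries overlapped by 1 library each, with 2.146 for combination replicate 3 and 2.151 for control replicate 2. This contrast describes the RNA of the whole culture and not the number of cells with a given surface phenotype.

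**Figure D3:**
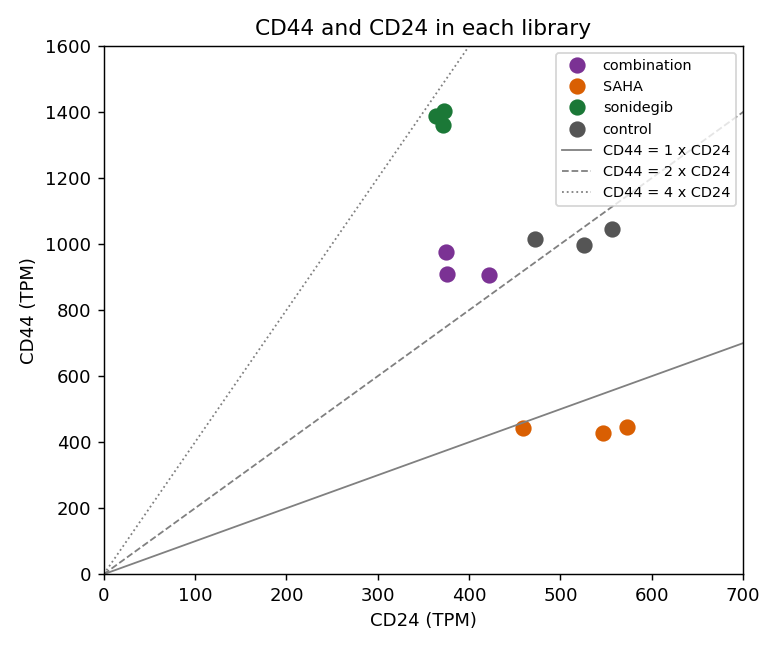
CD24 against CD44 in the 12 libraries, both in TPM. CD44 is on the vertical and CD24 on the horizontal axis, each point is a library coloured by group, and the lines mark CD44 levels of 1, 2 and 4 times CD24. The 3 SAHA libraries lie below the line of equal levels, the other libraries above it.

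PROM1 encodes CD133, a cholesterol-binding membrane glycoprotein of cell protrusions (chr4:15963076-16084378, minus strand). It had 18.8, 19.6 and 24.7 TPM in the combination libraries, 30.5, 28.5 and 31.6 TPM with SAHA, 39.5, 36.0 and 41.8 TPM with sonidegib, and 66.6, 63.3 and 83.0 TPM in control. The 4 groups did not overlap and kept this order, the combination lowest and control highest. PROM1 fell with SAHA by 1.20 on the log2(TPM + 1) scale (SE 0.12, limma adjusted p = 4.64e-06), with sonidegib by 0.84 (SE 0.12, adjusted p = 0.000104) and with the combination by 1.71 (SE 0.12, adjusted p = 2.09e-07). The combination mean of 21.1 ± 3.22 TPM was 0.297 of the control mean of 71.0 ± 10.5 TPM. It was lower than with either drug alone, with differences of -0.51 to SAHA (adjusted p = 0.00369) and -0.87 to sonidegib (adjusted p = 0.000166). Among the 8 markers it shared this behaviour, lower with each drug and lower again with both, with ALDH1A3.

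ITGA6 encodes integrin alpha6 (CD49f), which pairs with the beta1 or beta4 subunit as a laminin receptor (chr2:172427354-172506282, plus strand). It had 51.0, 51.4 and 60.6 TPM in the combination libraries, 61.0, 50.6 and 62.9 TPM with SAHA, 30.8, 31.7 and 34.6 TPM with sonidegib, and 31.1, 29.03 and 36.5 TPM in control. All 6 libraries with SAHA lay above all 6 without it, while sonidegib and control libraries overlapped. ITGA6 rose with SAHA by 0.83 on the log2(TPM + 1) scale (SE 0.11, limma adjusted p = 4.06e-05), and in the combination it was 0.74 above control (SE 0.11, adjusted p = 9.36e-05). Between combination and sonidegib the difference was 0.73 (SE 0.11, adjusted p = 0.000306). For sonidegib against control it was 0.01, with a 95% confidence interval of -0.22 to 0.25, and for the combination against SAHA -0.10, with an interval of -0.33 to 0.14. ITGA6 was the only one of the 4 surface antigens to rise with SAHA.

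ALDH1A3 encodes a retinaldehyde dehydrogenase that makes retinoic acid and contributes to the enzyme activity by which stem-like breast cancer cells are sorted (chr15:100877714-100916626, plus strand). It had 36.2, 42.7 and 45.0 TPM in the combination libraries, 77.0, 71.8 and 76.3 TPM with SAHA, 70.8, 64.5 and 76.8 TPM with sonidegib, and 95.2, 105 and 113 TPM in control. The combination libraries were the lowest, the control libraries the highest, and the 2 single-drug groups overlapped each other between them. ALDH1A3 fell with SAHA by 0.47 on the log2(TPM + 1) scale (SE 0.092, limma adjusted p = 0.001), with sonidegib by 0.55 (SE 0.092, adjusted p = 0.000347) and with the combination by 1.32 (SE 0.092, adjusted p = 2.29e-07). The combination mean of 41.3 ± 4.53 TPM was 0.396 of the control mean of 104 ± 8.72 TPM (SD, n = 3 each). The combination was also lower than SAHA alone by a difference of -0.85 (adjusted p = 1.61e-05) and than sonidegib alone by -0.76 (adjusted p = 7.38e-05).

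KLF4 encodes a zinc finger transcription factor of epithelial differentiation that is also one of the classical reprogramming factors (chr9:107484852-107490482, minus strand). It had 6.83, 6.95 and 8.04 TPM in the combination libraries, 6.78, 6.24 and 7.90 TPM with SAHA, 4.37, 5.27 and 4.17 TPM with sonidegib, and 1.21, 1.21 and 1.07 TPM in control. Every treated library was above every control library, and the sonidegib libraries lay between control and the libraries with SAHA. The means stood at 6.25 times control in the combination, 5.99 times with SAHA and 3.96 times with sonidegib. KLF4 rose by 1.93 with the combination (SE 0.12, limma adjusted p = 6.4e-08), 1.88 with SAHA (SE 0.12, adjusted p = 1.04e-07) and 1.37 with sonidegib (SE 0.12, adjusted p = 1.87e-06) on the log2(TPM + 1) scale, which understates the change of a gene this low. These were the largest rises among the 8 markers in each of the 3 comparisons. The combination was above sonidegib alone by 0.56 (adjusted p = 0.00253). It differed from SAHA alone by 0.06, with a 95% confidence interval of -0.20 to 0.31 and overlapping libraries.

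SOX9 encodes an HMG-box transcription factor of luminal progenitors and of many other epithelial progenitors (chr17:72121020-72126420, plus strand). It had 50.3, 48.1 and 53.2 TPM in the combination libraries, 74.96, 66.3 and 74.3 TPM with SAHA, 46.3, 54.2 and 49.0 TPM with sonidegib, and 69.2, 67.2 and 74.6 TPM in control. As for CD24, all 6 libraries with sonidegib lay below all 6 without it. SOX9 fell with sonidegib by 0.49 on the log2(TPM + 1) scale (SE 0.074, limma adjusted p = 0.000185), and by 0.50 between the combination and SAHA alone (SE 0.074, adjusted p = 0.000184). SAHA against control gave 0.03, with a 95% confidence interval of -0.13 to 0.19, and the combination against sonidegib gave 0.02, with an interval of -0.14 to 0.18. SOX9-AS1, a transcript of the opposite strand whose gene overlaps SOX9, averaged 9.18 TPM in the combination, 4.203 TPM with SAHA, 10.02 TPM with sonidegib and 5.91 TPM in control. It rose with sonidegib by 0.67 on that scale (adjusted p = 0.00811), opposite to SOX9. Whether the libraries kept strand is not given in the sources used here, so reads of the overlap cannot be assigned to one or the other.

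BMI1 encodes a subunit of Polycomb repressive complex 1, which ubiquitinates histone H2A (chr10:22321211-22331484, plus strand). It had 1.98, 2.25 and 3.40 TPM in the combination libraries, 3.86, 1.95 and 3.34 TPM with SAHA, 2.44, 6.52 and 1.82 TPM with sonidegib, and 4.28, 2.58 and 4.37 TPM in control. All groups overlapped, and the sonidegib mean of 3.59 ± 2.55 TPM rested on replicate 2, the highest of the 12 libraries. No comparison passed the test: the differences ran from -0.42 for the combination against control (95% confidence interval -1.16 to 0.33, limma adjusted p = 0.303) to -0.16 for sonidegib against control (interval -0.90 to 0.59, adjusted p = 0.72). These intervals are wide enough to hold a change of more than 1 in the downward direction for the combination. The value of BMI1 is also uncertain in itself. The annotated readthrough transcript COMMD3-BMI1 shares exons with it, and 22.1% of the 31-base words of BMI1 also occur in it. COMMD3-BMI1 averaged 11.3 ± 0.172 TPM in the combination, 10.3 ± 2.38 TPM with SAHA, 10.5 ± 1.56 TPM with sonidegib and 6.19 ± 1.03 TPM in control, and rose in all 3 treated groups (differences of 0.78, 0.64 and 0.68, limma adjusted p = 0.00139, 0.00567 and 0.00431). Summed over both, the differences to control were 0.44, 0.36 and 0.43, with adjusted p of 0.0671, 0.129 and 0.0759, so the sign of the BMI1 differences turned when both rows were summed, and none passed the test.

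The promoters of the 3 markers with a single start site in the RefSeq promoter table are shown because they carry the largest rise among the markers, KLF4, and 2 of the falls with SAHA, CD44 and ALDH1A3; they were chosen after the values had been seen. Each runs from 250 bases before to 50 bases after the RefSeq start, 5′ to 3′ along the gene's strand (GRCh38.p14). Capitals mark the GC box, GGGCGG or its reverse complement CCGCCC, which binds Sp1 and related zinc finger factors, to which the KLF proteins belong. The windows are chr9:107489720-107490019 on the minus strand for KLF4, chr11:35138921-35139220 on the plus strand for CD44 and chr15:100879581-100879880 on the plus strand for ALDH1A3.
KLF4: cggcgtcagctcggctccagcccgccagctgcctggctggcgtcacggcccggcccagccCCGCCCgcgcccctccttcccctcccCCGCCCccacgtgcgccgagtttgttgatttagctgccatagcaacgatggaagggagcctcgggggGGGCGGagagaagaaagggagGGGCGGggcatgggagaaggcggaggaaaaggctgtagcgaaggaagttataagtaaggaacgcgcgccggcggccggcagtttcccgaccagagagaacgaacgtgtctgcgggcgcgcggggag
CD44: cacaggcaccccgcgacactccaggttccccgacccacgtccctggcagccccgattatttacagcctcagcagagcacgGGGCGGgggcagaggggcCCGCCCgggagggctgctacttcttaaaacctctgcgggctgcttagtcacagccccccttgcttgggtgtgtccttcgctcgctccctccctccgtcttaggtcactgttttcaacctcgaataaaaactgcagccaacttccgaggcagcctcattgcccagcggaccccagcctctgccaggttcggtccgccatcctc
ALDH1A3: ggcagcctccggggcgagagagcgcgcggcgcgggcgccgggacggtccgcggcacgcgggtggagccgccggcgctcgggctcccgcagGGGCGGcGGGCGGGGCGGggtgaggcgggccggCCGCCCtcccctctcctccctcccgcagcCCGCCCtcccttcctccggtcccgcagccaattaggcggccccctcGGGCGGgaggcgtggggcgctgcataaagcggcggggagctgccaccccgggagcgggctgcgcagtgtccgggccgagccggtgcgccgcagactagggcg
The KLF4 window held 4 GC boxes, the CD44 window 2 and the ALDH1A3 window 6, counting overlapping matches on both strands, while 45% of the 35116 promoters in the table held at least 1. Each of these 3 windows held the GC box, and its part in the changes with SAHA was not tested. The windows held 33, 18 and 46 CpG dinucleotides for KLF4, CD44 and ALDH1A3, against a median of 14 over all promoters (quartiles 4 and 28), with G and C at 69.0%, 63.3% and 81.7% of bases. CACCC or its reverse complement GGGTG, the other sequence recognised by KLF factors, was found 0 times for KLF4, 2 times for CD44 and 3 times for ALDH1A3, and in 59.9% of all promoters. TATAAA or its reverse complement TTTATA was found in none of the 3 windows and in 11.5% of all promoters. These matches describe letters in the windows and are not binding sites. PROM1, CD24, ITGA6 and BMI1 have several starts among the RefSeq promoters used here, which do not include SOX9.

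The combination was set against each single drug to ask what each drug added to the other. Against SAHA alone, 5 of the 8 markers passed the test (1 higher and 4 lower), where 50.9% of all tested genes passed (18% higher and 33% lower), and the libraries of 5 markers did not overlap, as for 57% of all tested genes. CD44 was the 1 marker that rose, and PROM1, CD24, ALDH1A3 and SOX9 fell. Another scaling moves this comparison as a whole: the 2506 genes called higher and 4594 called lower became 3502 and 3735 under median-of-ratios scaling, and the median over all genes shifted to -0.01, against -0.12 without it. The 5 marker calls remained under that scaling. Against sonidegib alone, 5 passed (2 higher and 3 lower), where 38.5% of all tested genes passed (17.5% higher and 21% lower), and the libraries of 6 did not overlap, as for 49.6% of all tested genes. KLF4 and ITGA6 rose, and PROM1, CD44 and ALDH1A3 fell. CD24 was the marker without overlap that missed the test, at a difference of 0.08 (limma adjusted p = 0.497).

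Whether the SAHA change depended on sonidegib was tested as an interaction, the SAHA change with sonidegib (combination against sonidegib) minus the SAHA change without it (SAHA against control). CD44 and KLF4 passed, 2 of the 8 markers (1 higher and 1 lower), where 31.4% of all tested genes did (11.8% higher and 19.7% lower). CD44 fell by 0.57 with SAHA after sonidegib and by 1.22 with SAHA alone, an interaction of 0.65 (SE 0.057, limma adjusted p = 1.34e-05). KLF4 rose by 0.56 with SAHA after sonidegib and by 1.88 with SAHA alone, an interaction of -1.31 (SE 0.16, limma adjusted p = 0.000132). Both genes thus moved less with SAHA in cells that had received sonidegib, on the log2(TPM + 1) scale. The interactions of PROM1 (0.33, 95% confidence interval -0.04 to 0.69, adjusted p = 0.162) and ALDH1A3 (-0.30, interval -0.58 to -0.01, adjusted p = 0.106) missed the threshold. The interaction was -0.11 for ITGA6 (interval -0.44 to 0.23), 0.06 for CD24 (-0.20 to 0.32), -0.01 for SOX9 (-0.24 to 0.22) and -0.02 for BMI1 (-1.08 to 1.03). Over all tested genes the calls split into 1642 higher and 2739 lower, and into 2392 and 2395 under median-of-ratios scaling, where CD44 and KLF4 were still called with the same signs and PROM1 passed as well (0.41, limma adjusted p = 0.0163).

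**Figure D4:**
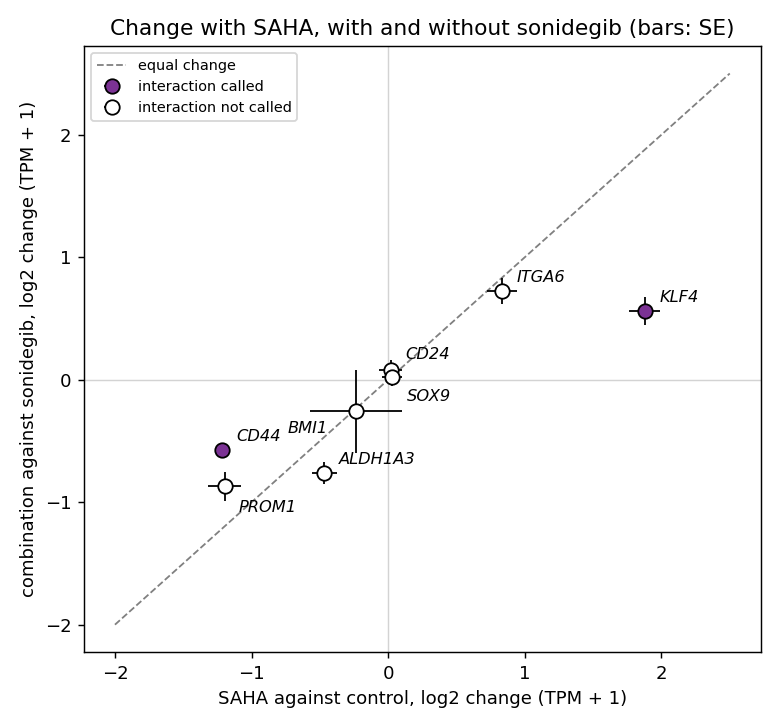
SAHA change of each marker with sonidegib (combination against sonidegib) on the vertical axis and without it (SAHA against control) on the horizontal axis, on the log2(TPM + 1) scale with bars for the standard error. On the line both changes are equal. KLF4, at 0.56 and 1.88, and CD44, at -0.57 and -1.22, lie off the line on opposite sides.

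Genes with the most similar pattern were sought for each marker as the smallest root mean square difference of centred log2(TPM + 1) values over the 12 libraries, among 9627 other genes that averaged 5 TPM or more. The nearest gene to SOX9 was CD24, another of the 8 markers, at 0.068. The nearest to CD24 were PTP4A2, a protein tyrosine phosphatase, at 0.062 and YWHAZ, a 14-3-3 protein, at 0.064. ITGA6 was followed most closely by ATP6V1A, a subunit of the vacuolar proton pump, at 0.063: it averaged 54.6 TPM in the combination, 60.3 TPM with SAHA, 31.4 TPM with sonidegib and 31.2 TPM in control. For CD44 the nearest were TMEM101 at 0.106 and UBE2C, a ubiquitin-conjugating enzyme of mitosis, at 0.107. UBE2C averaged 128 TPM in the combination, 60.5 TPM with SAHA, 212 TPM with sonidegib and 145 TPM in control, the same order of groups as for CD44. PROM1 lay nearest to SLTM at 0.099 and FHOD1 at 0.109, ALDH1A3 to KLHL21 at 0.105 and SLC11A2 at 0.105, and KLF4 to RGS10 at 0.134 and TNFRSF21 at 0.147. BMI1 had no near gene: its closest, RNF185-AS1, was at 0.262 over 9628 genes. The root mean square spread of the markers themselves was 0.25 for CD24, 0.26 for SOX9, 0.41 for ITGA6 and 0.42 for BMI1. It was 0.48 for ALDH1A3, 0.61 for CD44, 0.64 for PROM1 and 0.79 for KLF4. A distance should be read against the spread of its own marker and not against the distances of other markers. The 12 libraries are 4 groups of 3, so these distances compare 4 group means and the spread within them.

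The pathways to which the markers belong were followed with lists of related genes that exclude the 8 markers. The list counts stand beside 31.8% of all tested genes higher and 26.9% lower with SAHA, 26.1% and 29.2% with sonidegib, and 29.7% and 34% with the combination. Among 10 tested other surface antigens of breast stem and progenitor cells, 6 rose and 3 fell with SAHA, 2 rose and 2 fell with sonidegib, and 3 rose and 5 fell with the combination. The 2 rises with sonidegib became 1 without control replicate 1 or 3 or sonidegib replicate 1 or 2, and the 5 falls with the combination became 3 without control replicate 1 or combination replicate 2. NGFR, the low-affinity nerve growth factor receptor, rose with SAHA by 2.45 (SE 0.14, limma adjusted p = 6.59e-08) and with the combination by 1.49 (SE 0.14, adjusted p = 2.93e-06). It averaged 2.79 TPM in the combination, 6.34 TPM with SAHA, 0.51 TPM with sonidegib and 0.34 TPM in control. NGFR thus passed the filter of 1 TPM only through the groups with SAHA, which favours a rise there. PROCR, the protein C receptor that marks mammary stem cells in mice, averaged 3.68 ± 1.22 TPM in the combination, 5.42 ± 1.08 TPM with SAHA, 2.75 ± 0.122 TPM with sonidegib and 0.777 ± 0.301 TPM in control (SD, n = 3 each). It rose in all 3 treated groups. PROCR lay under the filter of 1 TPM in control, so it was tested only because of the treated groups. NGFR and PROCR are among the 6 rises with SAHA. EPCAM, which is also among the epithelial markers summed above, fell by 0.81 in the combination, 0.42 with SAHA and 0.83 with sonidegib (adjusted p = 6.89e-06, 0.00114 and 8.63e-06). The antigens thus did not move as a block.

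Among 16 tested other aldehyde dehydrogenases, 7 rose and 4 fell with SAHA, 11 rose and 3 fell with sonidegib, and 9 rose and 3 fell with the combination. The median difference of this list was 0.16 for SAHA, 0.68 for sonidegib and 0.36 for the combination, where all tested genes had 0.05, -0.02 and -0.02. ALDH1A1, the other retinaldehyde dehydrogenase that is used as a stem cell marker and chosen here after its values were seen, averaged 49.7 ± 3.001 TPM in the combination, 36.6 ± 3.26 TPM with SAHA, 39.8 ± 0.647 TPM with sonidegib and 20.5 ± 1.71 TPM in control. It rose in the combination by 1.24 on the log2(TPM + 1) scale (SE 0.078, limma adjusted p = 1.05e-07). In the combination ALDH1A1 exceeded ALDH1A3 (49.7 against 41.3 TPM), while in control ALDH1A3 was the more abundant (104 against 20.5 TPM). ALDH6A1, a mitochondrial enzyme of valine breakdown, rose by 1.52 in the combination and by 1.30 with sonidegib (adjusted p = 7.47e-08 and 5.53e-07). ALDH16A1 fell most with SAHA, by 1.73 (SE 0.10, adjusted p = 9.42e-08).

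Of 13 tested retinoic acid pathway genes, 3 rose and 9 fell with SAHA, 5 rose and 2 fell with sonidegib, and 2 rose and 9 fell with the combination. The 2 falls with sonidegib became 4 without control replicate 1 or sonidegib replicate 1. DHRS3, which reduces retinaldehyde to retinol, averaged 20.1 ± 0.722 TPM in the combination, 22.5 ± 0.920 TPM with SAHA, 61.1 ± 2.11 TPM with sonidegib and 77.3 ± 5.56 TPM in control. It fell by 1.89 in the combination (SE 0.064, limma adjusted p = 8.72e-10). RARRES1, a gene known as induced by the retinoid tazarotene, fell with SAHA by 2.07 (SE 0.15, adjusted p = 3.59e-07), and RDH10, which makes retinaldehyde from retinol, fell with the combination by 1.57 (SE 0.14, adjusted p = 2.03e-06). CRABP1, a cytoplasmic retinoic acid binding protein, rose with sonidegib by 1.24 (SE 0.11, adjusted p = 3.68e-06).

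Among 9 tested genes of hyaluronan metabolism and CD44 partners, 3 rose and 2 fell with SAHA, 3 rose and 3 fell with sonidegib, and 0 rose and 6 fell with the combination. EZR, which links CD44 to the actin cortex, averaged 181 ± 8.04 TPM in the combination, 355 ± 4.79 TPM with SAHA, 127 ± 1.88 TPM with sonidegib and 212 ± 8.40 TPM in control. It rose with SAHA by 0.74 and fell with sonidegib by 0.73 (SE 0.045 each, limma adjusted p = 1.02e-07 and 1.94e-07), in each case opposite to CD44. ESRP1, a splicing factor that favours the epithelial variant forms of CD44 and was chosen after its values were seen, averaged 35.7 ± 1.04 TPM in the combination, 24.7 ± 1.94 TPM with SAHA, 68.6 ± 3.87 TPM with sonidegib and 53.0 ± 2.85 TPM in control. It fell with SAHA by 1.07 and rose with sonidegib by 0.37 (adjusted p = 1.64e-07 and 0.000903). ESRP2, its paralogue in the same list, differed from control by 0.03 with SAHA and 0.11 with sonidegib (adjusted p = 0.812 and 0.274), and by -0.37 with the combination (adjusted p = 0.00186), so the 2 splicing factors did not move alike.

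Of 12 tested laminin chains and integrin alpha6 partners, 8 rose and 2 fell with SAHA, 7 rose and 2 fell with sonidegib, and 6 rose and 3 fell with the combination, with medians of 0.56, 0.38 and 0.39. LAMA3, a tested gene of this list, averaged 1.93 TPM in the combination, 3.63 TPM with SAHA, 1.37 TPM with sonidegib and 0.827 TPM in control. It lay under the filter of 1 TPM in control, so it was tested only because of the treated groups, which favours a rise there. The 2 falls with SAHA became 1 without SAHA replicate 3. ITGB1 belongs to this list and to the surface antigens above, so its rise with SAHA of 0.51 (limma adjusted p = 0.00603) is counted in both. ITGB4, the beta4 subunit that pairs with alpha6 in hemidesmosomes, averaged 51.4 ± 2.84 TPM in the combination, 69.2 ± 6.01 TPM with SAHA, 69.4 ± 8.34 TPM with sonidegib and 37.0 ± 2.64 TPM in control. ITGB4 rose with sonidegib by 0.89 (limma adjusted p = 1.11e-05), whereas ITGA6 had a difference of 0.01 there. LAMA4 fell in all 3 treated groups, most in the combination, by 1.68 (SE 0.076, adjusted p = 7.69e-09).

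Among 13 tested other KLF factors, 3 rose and 2 fell with SAHA, 6 rose and 2 fell with sonidegib, and 6 rose and 1 fell with the combination. The largest rise with sonidegib and with the combination was that of KLF15. KLF15 averaged 2.71 TPM in the combination, 1.16 TPM with SAHA, 3.24 TPM with sonidegib and 0.57 TPM in control. It lay under the filter of 1 TPM in control, so it was tested only because of the treated groups, which favours a rise there. The 2 falls with sonidegib became 1 without any of 7 libraries (combination replicate 1, SAHA replicates 1 and 3, sonidegib replicates 1 and 2, control replicates 1 and 2), and the 1 fall with the combination became 3 without control replicate 3. KLF6 averaged 16.0 ± 3.21 TPM in the combination, 13.7 ± 2.003 TPM with SAHA, 12.1 ± 1.65 TPM with sonidegib and 6.38 ± 1.06 TPM in control, and its rise with SAHA was 0.99 (SE 0.16, limma adjusted p = 0.00023). Of 4 tested other pluripotency factors, 0 rose and 3 fell with SAHA, 0 rose and 3 fell with sonidegib, and 1 rose and 3 fell with the combination. The 1 rise, of POU5F1, was lost without any of 6 libraries (combination replicates 1 and 3, SAHA replicate 2, sonidegib replicate 1, control replicates 1 and 3). POU5F1 averaged 1.497 TPM in the combination, 0.92 TPM with SAHA, 1.037 TPM with sonidegib and 0.5967 TPM in control. Being under the filter of 1 TPM in control and with SAHA favours a rise in the combination. Whether these losses came from the filter or from the test of the difference was not tested. MYC, a reprogramming factor like KLF4, averaged 35.6 ± 2.10 TPM in the combination, 37.4 ± 3.003 TPM with SAHA, 73.7 ± 3.74 TPM with sonidegib and 92.7 ± 11.2 TPM in control. It fell with SAHA by 1.28 (SE 0.091, adjusted p = 3.48e-07), where KLF4 rose. ZFP42, a marker of embryonic stem cells, fell with SAHA by 1.32 (SE 0.14, adjusted p = 1.07e-05).

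Among 5 tested other SOX factors, 1 rose and 2 fell with SAHA, 0 rose and 1 fell with sonidegib, and 1 rose and 4 fell with the combination. The 1 fall with sonidegib was lost without control replicate 3 or any 1 sonidegib library. SOX12 fell most, by 1.42 in the combination (SE 0.072, limma adjusted p = 1.77e-08), and SOX11 rose with SAHA by 1.29 (SE 0.11, adjusted p = 1.24e-06). Of 18 tested Polycomb repressive complex 1 genes, 6 rose and 6 fell with SAHA, 4 rose and 5 fell with sonidegib, and 6 rose and 7 fell with the combination. KDM2B, the CpG-binding subunit of a variant complex, averaged 3.92 ± 0.174 TPM in the combination, 5.39 ± 0.556 TPM with SAHA, 6.78 ± 0.142 TPM with sonidegib and 14.8 ± 0.876 TPM in control, and it fell with the combination by 1.68 (SE 0.086, adjusted p = 2e-08). Among 8 tested regulators of mammary stem and progenitor cells, 3 rose and 1 fell with SAHA, 3 rose and 1 fell with sonidegib, and 3 rose and 3 fell with the combination. The 1 fall with SAHA, of BCL11A, was lost without any of 6 libraries (combination replicate 2, SAHA replicates 1, 2 and 3, sonidegib replicate 3, control replicate 1). LBH, a transcriptional cofactor of basal mammary stem cells in mice, averaged 8 ± 1.65 TPM in the combination, 16.9 ± 0.522 TPM with SAHA, 4.55 ± 0.696 TPM with sonidegib and 2.26 ± 0.960 TPM in control, and it rose with SAHA by 2.499 (SE 0.20, adjusted p = 8.09e-07).

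**Figure D5:**
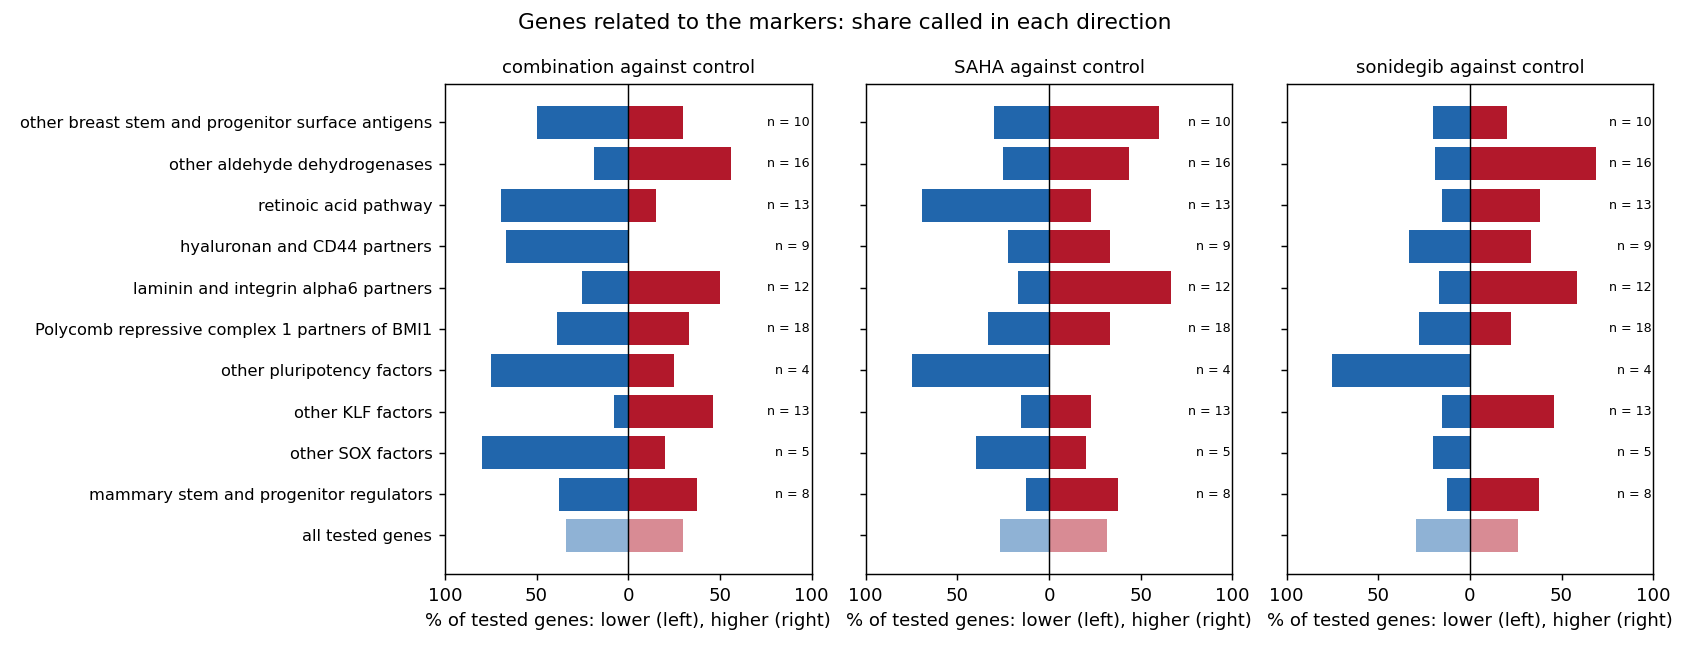
Share of tested genes called higher (to the right) and lower (to the left) in each related list and among all tested genes, by comparison with control. Aldehyde dehydrogenases rose more often than they fell in all 3 comparisons, and retinoic acid pathway genes fell more often than they rose with SAHA and with the combination; these shares were not tested against those of all genes.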

How the data were processed

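Total RNA of 12 MDA-MB-468 libraries was extracted with TRIzol and sequenced on an Illumina protocol, per the labels. The authors deposited 1 table of TPM per gene with 1 column per library, taken to its group and replicate by the sample titles. Bowtie2 2.4.1 and the build GRCh38 are named per the submitters' processing notes; the quantifier, annotation and strandedness are not given in the sources used here. TPM keeps no counts, so depth is unknown and counting error could not be given.

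Values were analysed as log2(TPM + 1), with a pseudocount of 1 TPM, for the 13937 genes that averaged 1 TPM or more. In limma 3.58.1 (R 4.3.3) the 4 groups were fitted together with an intensity trend, which left 8 residual degrees of freedom; no library was dropped. It was first tested on simulated data. The tests are two-sided, with Benjamini-Hochberg adjustment over all 13937 genes in each comparison, and genes were called at an adjusted p under 0.05. The interaction is combination minus sonidegib minus SAHA plus control. Coordinates come from GENCODE 29 (GRCh38), which matched 58611 of 59324 identifiers, and promoters from RefSeq (GRCh38.p14), which held 7 of the 8 markers.

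All 8 markers are named in every comparison, the 2 genes nearest to each by pattern, and from each related list genes with the largest called rise or fall, of which not all are printed; some results are not reported here. The markers and lists were chosen with earlier results of these data known. Alternatives were median-of-ratios scaling, quantile normalization, removal of mitochondrial and ribosomal RNA genes, a pseudocount of 0.1, no filter or a filter at 5 TPM, fits of the compared groups only, no intensity trend, a replicate block, leaving out each library, and, added after values were seen, BMI1 and CD24 summed with COMMD3-BMI1 and CD24P4.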

Additional observations from a re-analysis of the deposited data

Results flagged for a closer look

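For CD44 and KLF4 the SAHA change with sonidegib differed from the SAHA change without it, by the interaction test of the limma fit. The CD44 interaction was 0.65 on the log2(TPM + 1) scale (SE 0.057, adjusted p = 1.34e-05). All 3 combination libraries were below all 3 sonidegib libraries, and all 3 SAHA libraries below all 3 control libraries. The KLF4 interaction was -1.31 (SE 0.16, adjusted p = 0.000132), where KLF4 averaged 7.27 TPM in the combination and 4.60 TPM with sonidegib, and 6.97 TPM with SAHA and 1.16 TPM in control. Over all settings tried the KLF4 interaction ran from -1.83 with a pseudocount of 0.1 to -1.06 with quantile normalization.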

How the results depend on the processing

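Of the 8 markers, 5 were called under every setting with SAHA against control and in both comparisons of the combination with a single drug, 5 or 6 with sonidegib against control, 5 to 7 with the combination against control and 2 or 3 for the interaction. The call of CD44 in the combination against control was lost under median-of-ratios scaling (-0.08, adjusted p = 0.321), quantile normalization (-0.05, adjusted p = 0.261), without mitochondrial and ribosomal RNA genes (-0.07) and without the intensity trend (-0.13, adjusted p = 0.0592). Its difference ran from -0.17 to -0.11 when single libraries were left out. Quantile normalization also ended 2 CD24 calls, at -0.23 with sonidegib and -0.15 with the combination against control. Conversely, the interaction of PROM1 was called under median-of-ratios scaling (0.41) and that of ALDH1A3 under quantile normalization (-0.33, adjusted p = 0.0323). The log2 difference between CD44 and CD24 with sonidegib moved to 1.78 under quantile normalization. Differences near 0 that were not called turned sign: with SAHA against control CD24 to -0.052 and SOX9 to -0.040 under median-of-ratios scaling, ITGA6 in the combination against SAHA to 0.025 and 0.074 under median-of-ratios and quantile scaling, and the interactions of BMI1 (0.038 and 0.14) and SOX9 (0.080 and 0.017) under the same 2, and of CD24 to -0.026 under quantile normalization. The differences of BMI1 summed with COMMD3-BMI1 against control were 0.36 for SAHA, 0.43 for sonidegib and 0.44 for the combination, 0.074 for the combination against SAHA and 0.0023 against sonidegib. Leaving out single libraries gave ranges across 0 for CD24 (-0.045 to 0.11) and SOX9 (-0.0018 to 0.086) with SAHA, ITGA6 (-0.059 to 0.10) and BMI1 (-0.58 to 0.12) with sonidegib, and KLF4 in the combination against SAHA (-0.011 to 0.14). The same held for BMI1 (-0.54 to 0.17) and SOX9 (-0.030 to 0.081) in the combination against sonidegib, and for the interactions of CD24 (-0.035 to 0.12), BMI1 (-0.31 to 0.40) and SOX9 (-0.066 to 0.051). Counts of the related lists, where few genes are tested, moved by over 1.5 times without 1 library in 9 cases against control, given with the lists, and other settings moved some of these counts by 1 to 3 genes. The cause of these changes was not tested. Replicate numbers did not pair the libraries: deviations of same-numbered libraries correlated at -0.06 to 0.11 over 18 pairs of libraries, with 1 above 0.1. With the replicate number as a block, the interaction of PROM1, 0.33, was called (adjusted p = 0.0334), and 5, 6, 7, 5, 5 and 3 markers were called in the 6 comparisons. Unknown depth limits what can be said of BMI1, the marker with the widest intervals.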

Other observations

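Several genes related to the markers also had an interaction that passed the test. TFCP2L1, a transcription factor of naive pluripotency, fell by 1.15 with SAHA and by 1.19 with sonidegib and by 0.59 with the combination against control, an interaction of 1.75 (SE 0.12, limma adjusted p = 1.93e-06). In the combination it was higher than with SAHA alone by 0.55 (adjusted p = 0.00018). LBH had an interaction of -1.81 (SE 0.28, adjusted p = 0.000596), PROCR of -1.57 (SE 0.29, adjusted p = 0.00179) and ITGB4 of -1.31 (SE 0.13, adjusted p = 3.29e-05). All 3 of these rose with SAHA and rose with sonidegib, as KLF4 did, and PROCR lay under the filter of 1 TPM in control. HYAL3, a hyaluronidase, rose with SAHA by 1.06 and was lower in the combination than with SAHA, by a difference of -1.75 (adjusted p = 2.05e-06 and 1.07e-07). MMP14, a membrane protease that cleaves CD44, rose with sonidegib by 0.88 (adjusted p = 2.14e-05) and was lower in the combination than with sonidegib by a difference of -1.18 (adjusted p = 6.81e-06). These genes were named by the size of their changes within their lists.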
